A study of Mus musculus with 8 samples.

Results

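The ubiquitin-specific proteases (USPs) were described in the quadriceps of mice with and without a subcutaneous colorectal tumour. They were taken as all genes whose symbol is Usp followed by a number and optional letters, with at least 10 estimated counts summed over the 8 libraries. The rule found 56 symbols and kept 50 of the 35494 symbols in the table. Just inside the count minimum stood Usp51 with 10 counts, and just outside it Usp9y and Usp17lc with 3 counts each. The other 4 symbols left out (Usp17lb, Usp17ld, Usp17le and Usp26) were listed at 0 in every library. Of the 50 members, 48 passed the filter on low counts and were tested, while Usp51 and Usp17la did not pass it. The symbol rule also takes in Usp6nl, which encodes a GTPase-activating protein and not a protease, and it leaves out relatives with other symbols such as Cyld.

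Both groups were male wild-type C57BL/6 mice, 8 weeks old at randomisation, with 4 mice and 1 library per mouse in each. The scMC38 group had received 1000000 MC38 mouse colorectal cancer cells under the skin. The Control group had received the same volume of phosphate-buffered saline. Muscle was taken at day 28, and mRNA-seq libraries were made from total RNA of the whole quadriceps. Fewer cells of a type and less RNA per cell can therefore not be told apart.

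Ubiquitin is attached to proteins by a chain of activating, conjugating and ligase enzymes, and deubiquitinases take it off again. USPs are the largest family of deubiquitinases. They are cysteine proteases that edit or remove ubiquitin chains and thereby oppose ligases, rescue proteins from the proteasome and recycle ubiquitin. In skeletal muscle, where ligases such as atrogin-1 and MuRF1 mark proteins for breakdown during wasting, Usp14 acts at the proteasome itself, Usp19 has been tied to muscle mass in mice, and Usp2 is a target of the circadian clock.

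No USP gene was called different between scMC38 and Control muscle. With edgeR's quasi-likelihood test, 0 of 48 tested members had an adjusted p under 0.05, where 1.20% of the 14112 genes tested did (170 genes). The count was 0 higher, against 0.737% of all genes, and 0 lower, against 0.468%. At an unadjusted p under 0.05, edgeR gave 4 members higher in scMC38 (Usp36, Usp3, Usp20 and Usp46) and 2 lower (Usp12 and Usp2). These 6 are 12.5% of the tested members, against 21.0% of all genes. DESeq2 and limma-voom each called Usp36 and Usp3 higher and no member lower, while calling 10.1% and 4.49% of all genes.

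The differences were small. The log2 fold changes of the 48 members (scMC38 minus Control) ran from -0.45 to 0.64, and none exceeded 2-fold. Their median was 0.06 and 34 were positive, against a median of 0.00 and 50.2% positive among all genes tested. Without Control 1 and Control 2 the median of the members was -0.01 and 23 were positive. The 95% interval of the log2 fold change lay within 2-fold in either direction for 42 of the 48, and within 1.5-fold for 36. The members whose interval reached past 2-fold were Usp18, Usp27x, Usp29, Usp35, Usp43 and Usp44, each averaging under 2 CPM (counts per 1000000 counts, with library sizes scaled by TMM) in both groups.

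**Figure D1:**
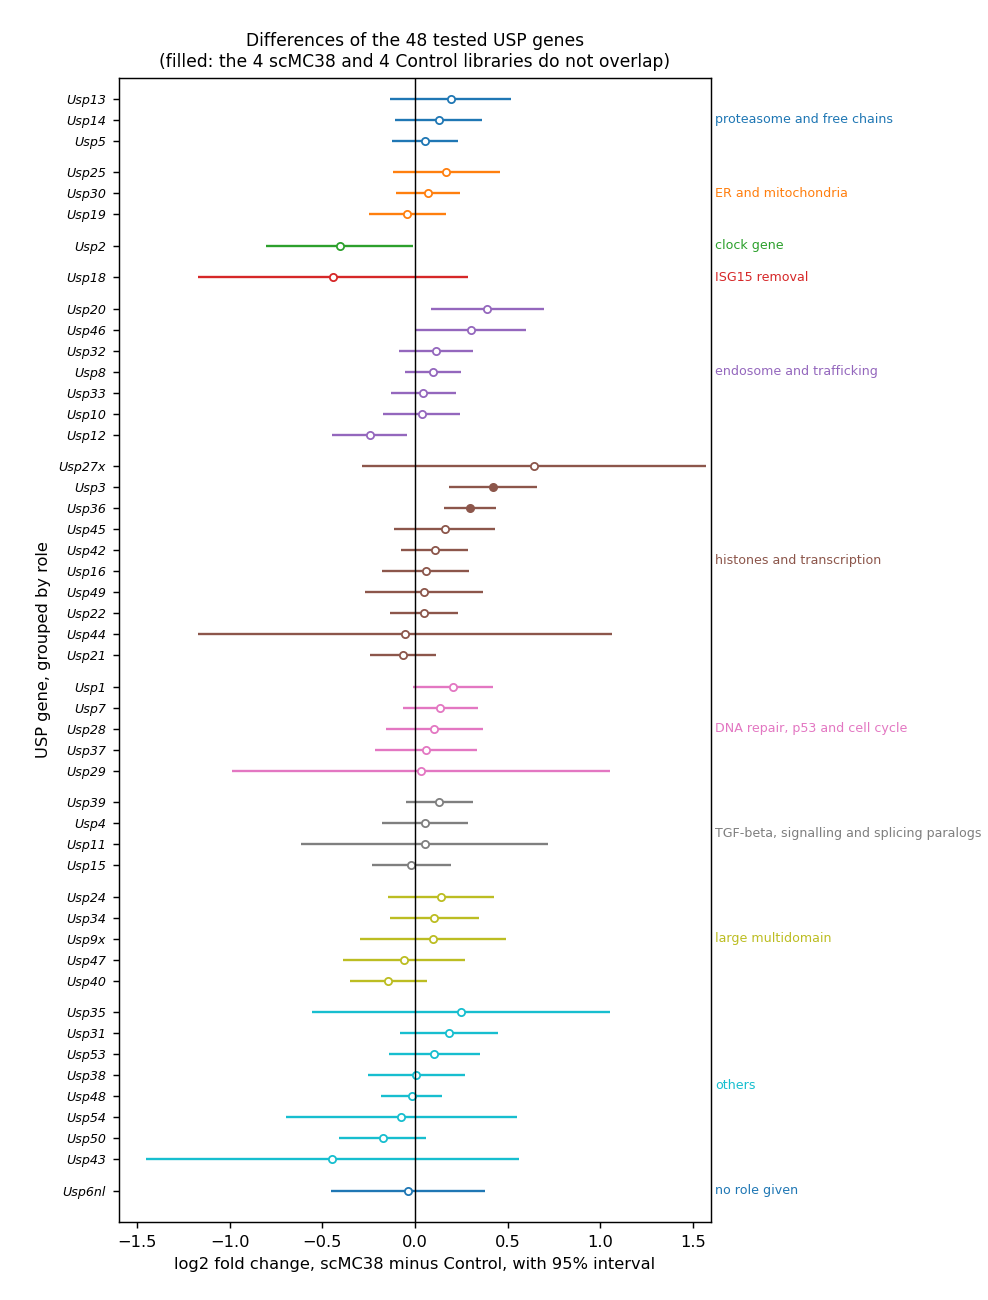
The log2 fold change of each of the 48 tested USP genes (x axis, scMC38 minus Control, points) with its 95% interval (lines), grouped by role on the y axis. Usp3 and Usp36 are the filled points, whose 4 scMC38 libraries lay above all 4 Control libraries, and their intervals ran from 0.18 to 0.66 and from 0.16 to 0.44.

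The libraries differed in other cell types, and these values stand beside all that follows. Summed over 7 neutrophil and marrow markers, scMC38 1 and scMC38 3 held 440 and 3990 CPM and scMC38 2 and scMC38 4 held 8.06 and 26.1 CPM, against 0.364 to 6.30 CPM in Control. Of these markers, 5 of 7 were at 0 in at least 1 library, and 0 of 7 in all 4 Control libraries. The 4 cell cycle markers summed to 1.89 to 94.3 CPM in scMC38, again highest in scMC38 3, and to 1.62 to 3.20 CPM in Control. The 4 macrophage markers summed to 81.8 to 437 CPM in scMC38 and to 71.6 to 96.0 CPM in Control. The 4 erythroid markers, all called higher by edgeR, summed to 992 to 1724 CPM in scMC38 and to 295 to 653 CPM in Control. The 5 muscle fibre markers (Ckm, Acta1, Myh4, Tnnt3 and Mb), which check the labelled tissue, were high in every library, at 83854 to 118249 CPM in scMC38 and 83575 to 118652 CPM in Control. Library totals ran from 52881767 to 61706385 counts in scMC38 and from 50465191 to 62105583 in Control.

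Sequences upstream of 4 USP genes are shown, chosen by the level of the gene or the gap between its groups. No motif was tested against expression. Usp13 and Usp2 were among the most abundant members, and Usp3 and Usp36 were the members whose groups did not overlap. Each is the 250 bases before the annotated start, 5′ to 3′ on the gene's strand, from RefSeq on GRCm38.p6. That build is earlier than the GRCm39 named by the submitters. Capitals mark GC boxes (GGGCGG, the Sp1 motif) and CCAAT boxes on either strand.
Usp13 (chr3:32817376-32817625, plus strand): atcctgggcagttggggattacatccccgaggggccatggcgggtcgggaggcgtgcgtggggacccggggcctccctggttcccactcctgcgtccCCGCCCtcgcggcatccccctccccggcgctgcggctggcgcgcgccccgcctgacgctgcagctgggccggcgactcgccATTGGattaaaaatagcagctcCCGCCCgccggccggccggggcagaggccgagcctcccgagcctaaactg
Usp2 (chr9:44084670-44084919, plus strand): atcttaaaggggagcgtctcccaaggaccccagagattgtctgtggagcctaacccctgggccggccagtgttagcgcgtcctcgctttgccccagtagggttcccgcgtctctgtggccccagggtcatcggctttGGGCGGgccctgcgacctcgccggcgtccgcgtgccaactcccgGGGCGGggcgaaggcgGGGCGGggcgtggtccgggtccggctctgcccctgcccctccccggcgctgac
Usp3 (chr9:66593116-66593365, minus strand): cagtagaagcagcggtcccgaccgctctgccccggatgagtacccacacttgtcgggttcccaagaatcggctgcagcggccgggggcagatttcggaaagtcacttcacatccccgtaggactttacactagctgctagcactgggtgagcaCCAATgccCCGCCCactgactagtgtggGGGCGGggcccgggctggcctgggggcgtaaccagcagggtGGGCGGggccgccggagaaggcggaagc
Usp36 (chr11:118290245-118290494, minus strand): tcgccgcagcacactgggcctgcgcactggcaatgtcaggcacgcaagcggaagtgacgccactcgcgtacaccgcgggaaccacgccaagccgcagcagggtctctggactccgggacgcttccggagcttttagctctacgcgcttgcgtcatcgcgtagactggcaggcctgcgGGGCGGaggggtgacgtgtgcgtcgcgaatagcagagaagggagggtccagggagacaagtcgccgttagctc

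All 4 windows were rich in G and C, at 73.6% for Usp13, 71.6% for Usp2, 66.0% for Usp3 and 65.6% for Usp36. Usp2 and Usp3 held 3 GC boxes each, Usp13 held 2 and Usp36 held 1. A CCAAT box stood upstream of Usp13 and of Usp3. Promoter windows were at hand for 38 of the 50 members, of which 26 (68.4%) held a GC box and 8 (21.1%) a CCAAT box, against 32.7% and 33.8% of 32851 promoter windows of all genes. The E-box CACGTG, which clock proteins bind, was found for 4 members (10.5%, against 6.02% of all windows), namely Usp4, Usp16, Usp31 and Usp6nl. It was not in the Usp2 window, nor was the D-box TTANGTAA (2.06% of all windows). Sites outside these 250 bases, or at other starts of Usp2, were not examined. The nuclear receptor half-site AGGTCA was found for 3 members (7.89%, against 14% of all windows), the forkhead motif GTAAACA for 0 (3.17%) and the cAMP response element TGACGTCA for 0 (1.55%). Motifs were counted on both strands, and the GC boxes and CCAAT boxes in the printed windows do not overlap each other.

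The family's mRNA was concentrated in few members. Usp13, Usp47, Usp2, Usp15 and Usp9x together held 48.5% of all USP counts. Together the 50 members took 0.251% to 0.276% of each library's counts in scMC38 and 0.198% to 0.263% in Control, lowest in Control 2.

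To compare genes, CPM were divided by the length in kb of the annotated transcript with the longest coding sequence. On this level per length Usp13 ranked 1 by the mean over all 8 libraries, at 57.7 ± 8.80 CPM per kb in scMC38 and 50.5 ± 6.53 in Control (SD, n = 4 each). Usp47 ranked 2, at 52.7 ± 7.76 CPM per kb in scMC38 and 54.9 ± 7.28 in Control. Usp2 ranked 3, at 43.5 ± 8.48 CPM per kb in scMC38 and 57.6 ± 10.6 in Control. In Control alone Usp2 had the highest mean of these 3. Their ranges overlapped over the 8 libraries, so their order lies within the spread between mice. Below them followed Usp25, Usp19 and Usp4, at 28.8, 26.8 and 23.7 CPM per kb in scMC38 and 25.7, 27.5 and 22.8 in Control. Per kb of coding sequence instead, Usp13 still ranked 1, Usp2 ranked 2 and Usp47 ranked 3, but Usp15, which has a long untranslated part, moved from rank 11 to rank 4. Which transcript muscle uses was not measured. At the low end, 11 members had a mean level per length under 1 CPM per kb over the 8 libraries, from Usp18 down to Usp51.

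**Figure D2:**
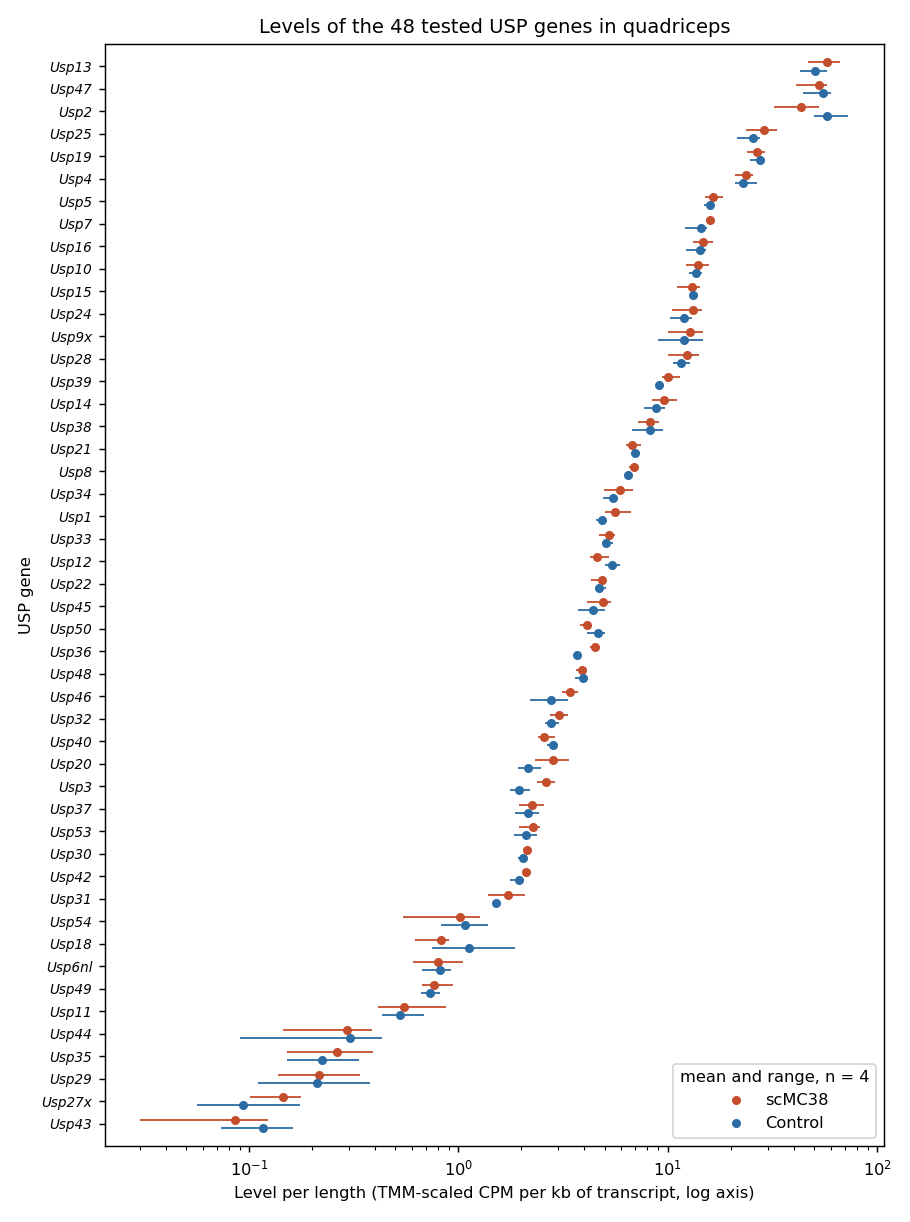
Level per length of the 48 tested USP genes (x axis, TMM-scaled CPM per kb of transcript, log axis), ranked on the y axis, with the mean (points) and range (lines) of 4 scMC38 and 4 Control libraries. Usp13, Usp47 and Usp2 stand at the top, between 32.1 and 72.9 CPM per kb over all libraries, and the 2 groups lie close together for most members.

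At the proteasome and in the handling of free ubiquitin chains, no member was called. Usp14 binds the regulatory particle of the proteasome and trims chains from substrates about to be degraded. It stood at 46.0, 44.0, 39.8 and 52.4 CPM in scMC38 1 to 4, against 42.1, 36.4, 42.7 and 45.6 CPM in Control 1 to 4. The groups overlapped, with the highest value in scMC38 4 and the lowest in Control 2. The log2 fold change of Usp14 was 0.13 (SE 0.10, 95% interval -0.11 to 0.36, edgeR adjusted p = 0.504), and it was 0.05 without scMC38 4 and 0.07 without Control 2. Exons of Usp14 overlap those of Thoc1 on the opposite strand, and no source says whether counting used strand, so their reads may not be told apart.

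Usp13, a ubiquitin-binding paralog of Usp5, had the largest share of the family's counts. Its libraries held 419, 505, 353 and 473 CPM in scMC38 and 404, 324, 366 and 439 CPM in Control. Control 2 and scMC38 3 were lowest in their groups, and the groups overlapped. Its log2 fold change was 0.19 (SE 0.14, 95% interval -0.13 to 0.52, edgeR adjusted p = 0.467). It was 0.37 without scMC38 1 and scMC38 3 and 0.11 without Control 1 and Control 2 (adjusted p = 0.246 and 0.827), and 0.12 without scMC38 2 or without Control 2 alone. Usp5, also called isopeptidase T, takes apart unanchored chains. It averaged 53.1 ± 4.42 CPM in scMC38 and 51.1 ± 2.51 CPM in Control (SD, n = 4), with a log2 fold change of 0.06 (95% interval -0.12 to 0.23, edgeR adjusted p = 0.717). Both proteins have 858 codons in the annotation. Per length, Usp13 stood at 57.7 CPM per kb in scMC38 and 50.5 in Control, and Usp5 at 16.5 in scMC38 and 15.9 in Control, with no overlap between the genes in any library.

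Among the members at the endoplasmic reticulum and at mitochondria, Usp19 showed no detectable difference. Usp19 is anchored in the endoplasmic reticulum, and its mRNA has been found raised in catabolic rat muscle. Here it stood at 132, 127, 114 and 140 CPM in scMC38 and 139, 118, 138 and 132 CPM in Control. The 2 groups covered nearly the same range. Usp19 had a log2 fold change of -0.04 (SE 0.09, edgeR adjusted p = 0.830), and its 95% interval of -0.25 to 0.17 does not reach 1.5-fold. Usp25, which acts in protein quality control and has a muscle isoform in humans, averaged 138 ± 19.8 CPM in scMC38 and 123 ± 13.4 CPM in Control (log2 fold change 0.17, 95% interval -0.12 to 0.46, edgeR adjusted p = 0.472, and 0.09 without scMC38 4 or without Control 2). Usp30 sits in the outer mitochondrial membrane and counteracts mitophagy. It was one of the steadiest members, at 9.33 to 10.3 CPM in scMC38 and 8.85 to 9.64 CPM in Control (log2 fold change 0.07, 95% interval -0.10 to 0.24, edgeR adjusted p = 0.616).

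Usp2 had the lowest log2 fold change among the abundant members. It stood at 204, 124, 173 and 171 CPM in scMC38, against 197, 218, 282 and 193 CPM in Control. The lowest value was in scMC38 2 and the highest in Control 3, and scMC38 1 lay within the Control range. Its log2 fold change was -0.41 (SE 0.17, 95% interval -0.80 to -0.01, edgeR adjusted p = 0.230). It was -0.27 without Control 3, -0.28 without scMC38 2 and -0.51 without scMC38 1. Usp2 varied more between mice than most members, with a coefficient of variation of 19.5% in scMC38 and 18.4% in Control, where the medians over the tested members were 11.2% and 10.2%. Exons of Usp2 overlap those of the predicted genes Gm39325 and Gm49380 on the opposite strand.

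The core clock and its outputs were read beside Usp2. Of 18 clock genes, all tested, 0 were called by edgeR and 4 had an unadjusted p under 0.05, 2 of them higher and 2 lower. These 4 are 22.2% of the clock genes, against 21.0% of all genes. The median log2 fold change of the 18 was -0.05. The repressor gene Bhlhe41 stood at 26.1 to 43.4 CPM in scMC38 and 50.8 to 62.3 CPM in Control (log2 fold change -0.69, edgeR adjusted p = 0.0682). The sources used here state no time of day for the dissection.

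The members with roles at histones and in transcription held the 2 genes whose groups did not overlap. Over all genes tested, 6.82% had all 4 scMC38 libraries above all 4 Control libraries and 6.45% had them below. Among the 48 members these counts were 2 and 0, which is below that background. Of the 10 tested members in this role 8 had a positive log2 fold change (80%, against 50.2% of all genes), with a median of 0.08.

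Usp36 is a nucleolar protease that acts on ribosomal RNA synthesis factors. It stood at 25.8, 26.2, 24.0 and 26.1 CPM in scMC38, against 20.6, 20.0, 21.3 and 21.2 CPM in Control. Within each group the mice lay close together, and the lowest scMC38 library, scMC38 3, was above every Control library. Usp36 had a log2 fold change of 0.30 (SE 0.06, 95% interval 0.16 to 0.44, edgeR adjusted p = 0.0641). It was called by DESeq2 (adjusted p = 0.000406), by limma-voom (0.0249), with a filter of at least 1 CPM (0.0489) and with scaling by total counts alone (0.0437). With 1 library left out at a time its adjusted p in edgeR ran from 0.0661 to 0.194, and its log2 fold change from 0.28 to 0.33. Without scMC38 1 and scMC38 3 it was 0.35 (adjusted p = 0.0960), and without Control 1 and Control 2 it was 0.26 (adjusted p = 0.385).

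Usp3 removes ubiquitin from histone H2A. It stood at 13.5, 15.5, 16.3 and 13.3 CPM in scMC38, against 11.2, 10.4, 9.86 and 12.4 CPM in Control. The gap between scMC38 4 and Control 4 was small. For Usp3 the log2 fold change was 0.42 (SE 0.10, 95% interval 0.18 to 0.66, edgeR adjusted p = 0.0875). DESeq2 (adjusted p = 0.0099) and limma-voom (0.0494) called it. The highest value was in scMC38 3, where the marrow and cell cycle markers were highest too. Without scMC38 1 and scMC38 3 the log2 fold change of Usp3 was 0.42 (adjusted p = 0.156), and without scMC38 3 alone it was 0.36. The part of these marker differences in the Usp3 values was not tested. Usp22, the deubiquitinase of the SAGA coactivator, averaged 21.6 ± 1.73 CPM in scMC38 and 20.8 ± 1.19 CPM in Control (log2 fold change 0.05, edgeR adjusted p = 0.751). Usp16, another H2A deubiquitinase, stood at 0.06 (95% interval -0.18 to 0.29), and its exons overlap those of Cct8 on the opposite strand.

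**Figure D3:**
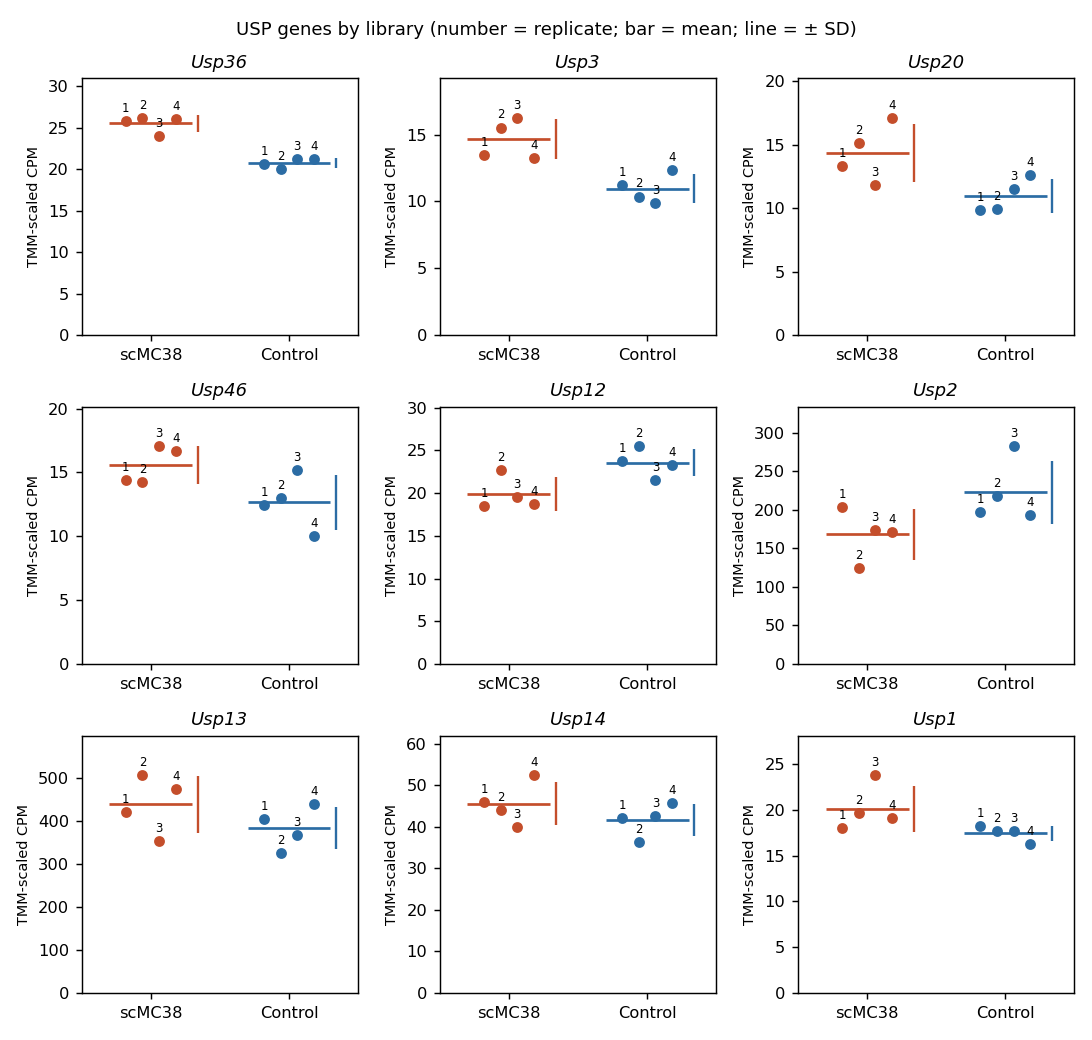
TMM-scaled CPM (y axes, from 0) of 9 USP genes in each of 4 scMC38 and 4 Control libraries (points, numbered by replicate), with the mean (bars) and SD (lines). The scMC38 libraries of Usp36 (24.0 to 26.2 CPM) and Usp3 (13.3 to 16.3 CPM) all lie above their Control libraries, and in the other 7 genes the groups overlap.

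None of the 7 members of endosomal and trafficking pathways was called. An unadjusted p under 0.05 in edgeR was reached by 3, Usp20 and Usp46 with a positive and Usp12 with a negative log2 fold change. That is 42.9% of the 7, against 21.0% of all genes and 12.5% of the 48 tested members. These 3 were named after their values had been seen. Usp20, one of a pair of von Hippel-Lindau-interacting proteases, stood at 13.4, 15.1, 11.9 and 17.1 CPM in scMC38 and 9.85, 9.93, 11.5 and 12.6 CPM in Control. Only scMC38 3 lay within the Control range. The log2 fold change of Usp20 was 0.39 (SE 0.13, 95% interval 0.09 to 0.69, edgeR adjusted p = 0.153). It was 0.58 without scMC38 1 and scMC38 3 and 0.24 without Control 1 and Control 2 (adjusted p = 0.102 and 0.574). Its paralog Usp33 stood at 0.05 (95% interval -0.13 to 0.22, edgeR adjusted p = 0.768).

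Usp12 and Usp46 are close paralogs, with 370 and 366 codons, and both work with the cofactors Wdr48 and Wdr20. Usp46 stood at 14.4, 14.2, 17.0 and 16.6 CPM in scMC38 and 12.4, 13.0, 15.2 and 10.0 CPM in Control. Control 3 lay within the scMC38 range. Usp12 stood at 18.4, 22.7, 19.6 and 18.7 CPM in scMC38 and 23.8, 25.4, 21.6 and 23.3 CPM in Control, and only scMC38 2 reached the Control range. On the log2 scale the fold change was 0.30 for Usp46 (SE 0.13, edgeR adjusted p = 0.233) and -0.24 for Usp12 (SE 0.09, edgeR adjusted p = 0.170). Usp46 has antisense transcripts annotated over its exons (Usp46os1 and Usp46os2). Wdr48 and Wdr20 stood at -0.08 and -0.01 on the same log2 scale (edgeR adjusted p = 0.601 and 0.958). Usp8, which deubiquitinates cargo at endosomes, averaged 28.6 ± 1.78 CPM in scMC38 and 26.7 ± 0.730 CPM in Control (log2 fold change 0.10, edgeR adjusted p = 0.434). Usp10, a partner of the stress granule protein G3bp1, stood at 0.04 (95% interval -0.17 to 0.24, edgeR adjusted p = 0.849).

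All 5 tested members tied to DNA repair, p53 and the cell cycle had a positive log2 fold change, against 50.2% of all genes. None was called. Usp1, which acts on repair factors together with Wdr48, stood at 18, 19.6, 23.8 and 19.1 CPM in scMC38 and 18.2, 17.7, 17.6 and 16.3 CPM in Control. The highest value was in scMC38 3, the library richest in cell cycle markers (94.3 CPM), and the part of those cells in it was not tested. The log2 fold change of Usp1 was 0.21 (SE 0.10, edgeR adjusted p = 0.257) and 0.12 without scMC38 3. Usp7, which acts on Mdm2 and p53, was even across scMC38 (72.5 to 77.4 CPM). Control ran from 57.4 CPM in Control 2 to 72.7 CPM, and the log2 fold change was 0.14 (SE 0.09, edgeR adjusted p = 0.405) and 0.06 without Control 2. Usp28, the paralog of Usp25, averaged 51.2 ± 7.09 CPM in scMC38 and 47.6 ± 4.41 CPM in Control (log2 fold change 0.10, edgeR adjusted p = 0.636, and 0.03 without scMC38 4).

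Usp4, Usp11 and Usp15 are paralogs that act on TGF-beta receptor and SMAD signalling. Usp15 averaged 151 ± 16.3 CPM in scMC38 and 153 ± 4.48 CPM in Control (log2 fold change -0.02, 95% interval -0.23 to 0.19, edgeR adjusted p = 0.926). Usp4 averaged 86.8 ± 7.35 CPM in scMC38 and 83.6 ± 9.58 CPM in Control (0.06, edgeR adjusted p = 0.784). Usp11 was low, at 1.43, 1.44, 3.03 and 1.67 CPM in scMC38 and 1.5 to 2.36 CPM in Control. Per length, Usp4 and Usp15 stood at 23.7 and 13.1 CPM per kb in scMC38 and 22.8 and 13.2 in Control, and Usp11 at 0.547 in scMC38 and 0.528 in Control.

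Usp18, which removes the ubiquitin-like modifier ISG15 and is induced by interferon, was low in both groups. It stood at 1.59, 1.59, 1.57 and 1.1 CPM in scMC38 and 1.32, 1.38, 1.94 and 3.31 CPM in Control. Control 4 was the highest library and the groups overlapped. For Usp18 the log2 fold change was -0.44 (SE 0.32, 95% interval -1.17 to 0.29, edgeR adjusted p = 0.452), and -0.08 without Control 4. Of 15 other interferon-stimulated genes tested, 0 were called and 0 had an unadjusted p under 0.05 in edgeR, where 21.0% of all genes did. The median of the 15 was 0.12 on the log2 scale. Mx1 and Oas1a had the smallest p, with log2 fold changes of 0.92 each (edgeR adjusted p = 0.278 and 0.283). Both were low and their groups overlapped. Mx1 stood at 0.158 to 0.416 CPM in scMC38 and 0.0800 to 0.255 CPM in Control. Oas1a stood at 0.650 to 2.63 CPM in scMC38, highest in scMC38 3, and at 0.480 to 1.24 CPM in Control.

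None of the 5 large multidomain members (Usp9x, Usp24, Usp34, Usp40 and Usp47) was called, and 4 of them, all but Usp40, were lowest in scMC38 3 and in Control 2 within their groups. Usp40 stood at 11.6, 9.75, 10.0 and 9.51 CPM in scMC38 and 11.9, 11.9, 10.8 and 10.5 CPM in Control, lowest in scMC38 4 and Control 4. Usp9x, which acts in protein trafficking and cell polarity, stood at 169, 176, 119 and 146 CPM in scMC38 and 140, 107, 147 and 176 CPM in Control (log2 fold change 0.10, 95% interval -0.30 to 0.49, edgeR adjusted p = 0.779). Usp47, which acts in base excision repair, stood at 328, 335, 239 and 324 CPM in scMC38 and 326, 257, 344 and 349 CPM in Control (-0.06, 95% interval -0.39 to 0.27, edgeR adjusted p = 0.847). Usp32 and Usp54, with 1604 and 1588 codons against 1376 in Usp47, were also lowest in Control 2 within Control, but within scMC38 they were lowest in scMC38 4 and in scMC38 2. Smaller members were lowest in scMC38 3 and in Control 2 too, among them Usp19 (1360 codons), Usp13 (858 codons) and Usp14 (493 codons). The pattern was thus not particular to the large members. Averaged over Usp9x, Usp24, Usp34 and Usp47, a set put together after their values were seen, log2 CPM relative to the Control mean was 0.17, 0.25, -0.24 and 0.09 in scMC38 1 to 4 and 0.06, -0.26, 0.03 and 0.17 in Control 1 to 4. The summed fibre markers were also lowest in scMC38 3 (83854 CPM) and Control 2 (83575 CPM), against 93588 to 118652 CPM in the other 6 libraries. The markers did not go one way in Control 2, where Myh4 was the lowest of all libraries (16229 CPM) and Mb the highest (4409 CPM). Control 2 also had the highest share of mitochondrially encoded counts, at 29.7%, against 14.4% to 18.9% in scMC38 and 16.3% to 24.3% in the rest of Control. The part of these library differences in the USP values was not tested.

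Over the 48 tested members, Control 2 was the lowest of the 8 libraries for 20 members, scMC38 3 for 8, and each of the others for 1 to 5. The highest library was scMC38 4 for 11 members, scMC38 2 for 10 and scMC38 3 for 7, and Control 1, 2, 3 and 4 for 1, 3, 4 and 6. A coefficient of variation under 10% between mice was seen for 20 members in scMC38 and 23 in Control.

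**Figure D4:**
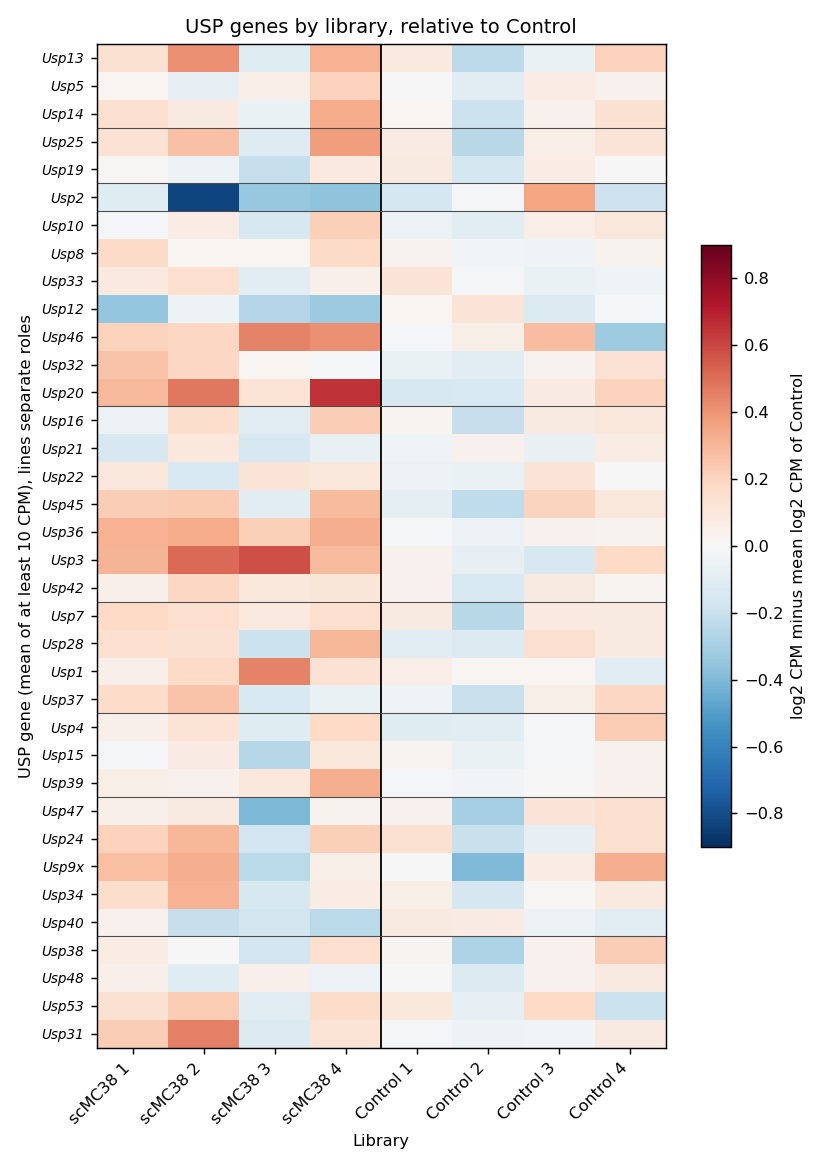
Log2 CPM minus the mean log2 CPM of Control (colour) for the 36 USP genes averaging at least 10 CPM (rows, ordered by role, lines between roles) in 4 scMC38 and 4 Control libraries (columns). Control 2 and scMC38 3 are blue over most rows, Usp36 and Usp3 are red in all 4 scMC38 libraries, and the darkest cell is Usp2 in scMC38 2 (124 CPM).

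The remaining members were low or showed small differences. Usp39, a splicing factor that lacks the catalytic residues, stood at 0.13 (edgeR adjusted p = 0.362), and Usp31 at 0.18 (edgeR adjusted p = 0.393). Usp50, Usp53, Usp54, Usp48, Usp38 and Usp40 stood between -0.17 and 0.10 on the log2 scale. Usp17la, a member of a cluster of near-identical copies whose counts are uncertain, held 0 to 5.59 estimated counts per library in scMC38 and 1.06 to 6.69 in Control. Usp51 held 7 of its 10 counts in scMC38 3. Usp9y, the Y-linked counterpart of Usp9x, was at 0 in 7 of these 8 male libraries and held 3 counts in scMC38 2.

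The other arms of the pathway were read in the same fit. Of 35 tested genes outside the symbol rule, listed as other deubiquitinases and related genes such as Cyld, 0 were called by edgeR. At an unadjusted p under 0.05, 4 were higher and 2 lower (together 17.1%, against 21.0% of all genes). The median log2 fold change of the 35 was 0.02. Mindy1, which cleaves long K48-linked chains, stood at 37.1 to 43.7 CPM in scMC38 and 29.9 to 33.8 CPM in Control (log2 fold change 0.35, SE 0.08, edgeR adjusted p = 0.0783). Otud5, a protease of the ovarian tumour family, came next by p (0.30, edgeR adjusted p = 0.134). Another gene of that family, Otud1, named after its values were seen, had the only difference past 2-fold in the list. It stood at 13.7, 7.44, 11.6 and 19.3 CPM in scMC38 and 53.8, 54.0, 30.7 and 8.92 CPM in Control, with Control 4 within the scMC38 range (-1.50, SE 0.52, edgeR adjusted p = 0.155). Psmd14 and Uchl5, which share the proteasome with Usp14, stood at 0.13 and -0.01 (edgeR adjusted p = 0.383 and 0.939).

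Of 12 proteasome subunits and partners, 11 had a positive log2 fold change (91.7%, against 50.2% of all genes). An unadjusted p under 0.05 in edgeR was reached by 5 (41.7%, against 21.0% of all genes). None was called, and the median was 0.22. Psmd4, a ubiquitin receptor of the proteasome, stood at 132 to 165 CPM in scMC38 and 103 to 118 CPM in Control (0.41, SE 0.10, edgeR adjusted p = 0.0824). Psmd2, a scaffold subunit, stood at 254 to 325 CPM in scMC38 and 182 to 224 CPM in Control (0.44, SE 0.11, edgeR adjusted p = 0.0883). Of 7 ubiquitin and activating enzyme genes, 0 were called and 2 had an unadjusted p under 0.05 in edgeR (28.6%, against 21.0% of all genes). Their median was 0.20 over the 7 genes. The polyubiquitin gene Ubb stood at 1137, 1123, 1081 and 1207 CPM in scMC38 and 815, 764, 803 and 845 CPM in Control (0.50, SE 0.10, edgeR adjusted p = 0.0510). All 4 scMC38 libraries lay well above Control, and the adjusted p did not pass. Over all genes tested, 6.82% had all 4 scMC38 libraries above all 4 Control libraries. Of 14 USP cofactor and module genes, 0 were called, and the median was 0.00. An unadjusted p under 0.05 in edgeR was reached by 1 (7.14%, against 21.0% of all genes). That gene was Atxn7l3, which activates Usp22 (0.22, edgeR adjusted p = 0.223), and Atxn7l1 was next (-0.22, edgeR adjusted p = 0.273).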

How the data were processed

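RNA of quadriceps was sequenced as mRNA libraries from 8 mice, 1 library each, 4 scMC38 and 4 Control, grouped by sample title. Libraries were matched to columns by the library names in the descriptions. Per the labels' protocols, RNA was isolated with a column kit and made into libraries with the Universal Plus mRNA-seq kit. Salmon 1.10.3, fastp 1.0.1, MultiQC 1.30, FastQC 0.12.1, R 4.4.3 and the build GRCm39 appear in the submitters' processing notes, without their roles. The authors deposited estimated counts by gene with no scaling for library size, and 49.3% of the nonzero values are fractional. Neither the annotation release nor the use of strand is given in the sources used here. In GENCODE M21 on GRCm38, 16 members have exons that overlap a gene on the opposite strand.

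The 144 of 35667 rows without a symbol (at most 0.00403% of a library) were left out, rows of 26 repeated symbols were summed, and counts were rounded. The main test was the robust quasi-likelihood F test of edgeR 4.0.16 (R 4.3.3) after filterByExpr and TMM scaling, with no covariate, Benjamini-Hochberg adjustment over 14112 genes and a threshold of 0.05. Standard errors and 95% intervals are those implied by the F statistic. The fit was tested on simulated data with changes larger than any seen among the members. That test does not show how well differences as small as theirs are detected. DESeq2 1.42.0, limma 3.58.1 with voom, other scalings and filters, and fits without 1 or 2 libraries were run beside it. Depth was high (50465191 to 62105583 counts), so the spread between mice sets most of the precision for genes with many counts. The common biological coefficient of variation over all genes tested was 27.3%. For the CPM of the tested members, the median coefficient of variation was 11.2% in scMC38 and 10.2% in Control. In members with few counts, such as Usp43 with 203 over the 8 libraries, counting noise adds to this spread. Each library was counted as 1 replicate because it came from 1 mouse. All within-group pairs of libraries differed beyond counting noise (chi-square per degree of freedom of at least 63.3). Separate libraries of 1 mouse could differ in this way too, so these values cannot show that the mice were separate.

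Genes were named by rule: members past the threshold, Usp14, Usp13 and Usp2, a set of members with known roles, members whose groups did not overlap, the 6 highest per length, and from each other list up to 4 called genes or the 2 with the smallest p, some of which are not reported here. The members and lists were chosen with earlier results of these data known.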

Additional observations from a re-analysis of the deposited data

Results flagged for a closer look

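In a group of 4 libraries, a value was singled out when its gap to the nearest other library took up most of the group's range. Of the 100 groups examined (50 members in 2 groups), 7 held such a library. The limit was set so that independent, normally distributed values would give about 5 in 100. All members share the same libraries, and some, such as Usp51, are near 0 counts. The 7 can therefore not be tested against that share. In scMC38 3, Usp11 was highest (3.03 CPM, the other scMC38 libraries 1.43 to 1.67), Usp47 was lowest (239 CPM, the others 324 to 335) and Usp51 was highest (0.0997 CPM, the others 0 to 0.0169). Usp18 was lowest in scMC38 4 (1.1 CPM, the others 1.57 to 1.59) and Usp22 in scMC38 2 (19.0 CPM, the others 22.3 to 22.6). Among Control libraries, Usp27x was highest in Control 4 (0.747 CPM, the others 0.240 to 0.320) and Usp7 was lowest in Control 2 (57.4 CPM, the others 72 to 72.7).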

How the results depend on the processing

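The count of USP genes called was 0 higher and 0 lower in edgeR, and moved under 4 of the 18 alternatives, where it was 1 higher (Usp36) with total counts only and with at least 1 CPM in 4 libraries, and 2 higher (Usp36 and Usp3) with DESeq2 and with limma-voom. With each replicate left out in turn it was 0 to 0 in either direction. With total counts only, the log2 median was 0.11 over all genes and 0.17 over the members, and 42 of 48 members were positive against 65.0% of all genes. Some log2 fold changes near 0 changed sign, with no call on either side. With total counts only they were 0.0573 for Usp19, 0.0765 for Usp15 and 0.0323 for Usp47, and with limma-voom 0.0023 for Usp15. Without scMC38 1 and scMC38 3 they were 0.0345 for Usp19, 0.11 for Usp15 and 0.0665 for Usp47. Without Control 1 and Control 2 they were -0.0065 for Usp5, -0.10 for Usp9x, -0.051 for Usp10, -0.0605 for Usp4, -0.0152 for Usp28 and -0.0174 for Usp22. With 1 library left out, the ranges were -0.0916 to 0.0114 for Usp19, -0.0635 to 0.0507 for Usp15, -0.15 to 0.0439 for Usp47, -0.0011 to 0.10 for Usp5, -0.0284 to 0.091 for Usp10 and -0.0215 to 0.21 for Usp9x. The cause was not tested. The groups share replicate numbers, but same-numbered libraries did not deviate together (correlations of -0.281 to -0.0058). These correlations show no pairing of the mice by number but cannot exclude one. With the replicate number as a block, 0 members were called, the smallest adjusted p was 0.271 (Usp36), and 1 gene of all 14112 was called.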

Other observations

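Paralog pairs of USP genes were also set side by side as ratios of CPM within a library, where length cancels between libraries. They were chosen after the values were seen and were not tested. The ratio of Usp46 to Usp12 was 0.783, 0.626, 0.870 and 0.889 in scMC38 1 to 4 and 0.523, 0.510, 0.705 and 0.429 in Control 1 to 4, so that Control 3 lay above scMC38 2. The ratio of Usp20 to Usp33 was 0.595 to 0.787 in scMC38 and 0.430 to 0.611 in Control. The ratio of Usp13 to Usp5 was 6.62 to 10.4 in scMC38 and 6.79 to 8.38 in Control. The ratio of Usp25 to Usp28 was 2.54 to 2.81 in scMC38 and 2.35 to 2.91 in Control, so that the scMC38 range lay within that of Control.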
